A study of Mus musculus with 30 samples.

Results

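Hepcidin, the hepcidin-like gene Hamp2, the metallothioneins Mt1 and Mt2, and 6 genes that carry, store or sense iron in the liver were followed by age, time of day and genotype in mouse liver. The 10 genes were taken by name: Hamp, Hamp2, Mt1, Mt2, Tfrc, Slc40a1, Fth1, Ftl1, Tmprss6 and Slc39a14. All 10 were found among the 54429 gene symbols of a time course and, by Ensembl identifier, among the 55471 genes of a genotype cohort. Poly(A) RNA was counted per gene in liver libraries from male mice kept on a 12-h light and 12-h dark cycle with free access to chow. In the time course, wild-type C57BL/6J mice aged 2, 6 and 12 months were sampled at zeitgeber time (ZT, hours after lights on) 1, 5, 9, 13, 17 and 21, with 1 library for each age and ZT (18 libraries). In the genotype cohort, livers of Egr-1 knockout mice (KO; floxed Egr-1 deleted in hepatocytes by Alb-Cre, in a strain 129 line that had been backcrossed to C57BL/6J) and of WT littermates were sampled at the same ages, at a time of high (H) and a time of low (L) Egr-1 protein (12 libraries, 1 per age, time and genotype, 6 WT and KO pairs). By the study's methods, H and L were ZT13 and ZT17 at 2 months, ZT9 and ZT21 at 6 months, and ZT5 and ZT21 at 12 months, so in that cohort age and time of day cannot be told apart in a comparison with 2 months, while the L libraries of 6 and 12 months share ZT21.

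Hepcidin, the peptide encoded by Hamp, is secreted by hepatocytes and binds ferroportin (Slc40a1), the iron exporter, which is then degraded, so that less iron enters the plasma. Its transcription is known to be driven by bone morphogenetic protein (BMP) and SMAD signalling when iron is high and by interleukin-6 and STAT3 in inflammation, and is held back by the membrane protease Tmprss6. Metallothioneins are small cysteine-rich proteins that bind zinc and copper, and are induced by metals through MTF1, by glucocorticoids and in the acute-phase response. Slc39a14 (ZIP14) brings zinc and non-transferrin iron into hepatocytes, Tfrc is the receptor for iron-loaded transferrin, and Fth1 and Ftl1 are the heavy and light chains of ferritin, which stores iron.

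The promoters of the hepcidin and metallothionein pairs are shown because the metallothioneins moved together in the data and Hamp and Hamp2 are near copies that gave unlike values. The windows (RefSeq, GRCm38.p6, 250 bases before to 50 bases after the start, 5′ to 3′ on the gene's strand) were found for 7 of the 10 genes. Capitals mark matches on either strand to the metal response core (TGCACNC or TGCGCNC), the BMP response core GGCGCC, the STAT core TTCNNNGAA, the E-box CACGTG or the Egr core GCGNGGGCG. These motifs overlapped in none of the 4 windows printed.
Mt1, chr8:94178839-94179138, plus strand: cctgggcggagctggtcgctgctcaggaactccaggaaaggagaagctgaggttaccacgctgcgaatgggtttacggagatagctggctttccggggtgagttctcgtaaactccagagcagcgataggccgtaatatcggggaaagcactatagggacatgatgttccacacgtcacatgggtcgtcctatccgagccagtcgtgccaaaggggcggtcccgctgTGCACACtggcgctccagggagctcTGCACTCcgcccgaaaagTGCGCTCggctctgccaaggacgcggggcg
Mt2, chr8:94172368-94172667, plus strand: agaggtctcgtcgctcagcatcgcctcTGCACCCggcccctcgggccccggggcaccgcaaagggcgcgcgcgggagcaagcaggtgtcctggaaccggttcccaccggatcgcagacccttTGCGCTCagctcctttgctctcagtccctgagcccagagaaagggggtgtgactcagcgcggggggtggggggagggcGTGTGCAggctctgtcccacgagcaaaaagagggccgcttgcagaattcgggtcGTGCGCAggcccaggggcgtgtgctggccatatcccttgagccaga
Hamp, chr7:30943980-30944279, minus strand: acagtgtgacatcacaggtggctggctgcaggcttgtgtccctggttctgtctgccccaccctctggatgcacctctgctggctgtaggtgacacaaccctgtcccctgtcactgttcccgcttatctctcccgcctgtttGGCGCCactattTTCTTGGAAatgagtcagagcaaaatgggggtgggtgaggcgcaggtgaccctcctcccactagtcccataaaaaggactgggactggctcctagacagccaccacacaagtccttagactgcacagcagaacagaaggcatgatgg
Hamp2, chr7:30924132-30924431, minus strand: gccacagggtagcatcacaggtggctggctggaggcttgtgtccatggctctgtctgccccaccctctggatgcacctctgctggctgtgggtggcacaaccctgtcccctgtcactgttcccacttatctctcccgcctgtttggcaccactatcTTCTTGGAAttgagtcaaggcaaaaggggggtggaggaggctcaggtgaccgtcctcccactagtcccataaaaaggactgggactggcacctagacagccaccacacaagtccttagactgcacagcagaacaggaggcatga
The Mt1 window held 3 metal response cores and the Mt2 window 4, where 25.7% of all 32851 promoter windows held at least 1 and 0.517% held 4 or more. The Hamp window held 1 BMP core and 1 STAT core, and the Hamp2 window held the same STAT core but no BMP core. A BMP core was present in 11.9% of all windows and a STAT core in 8.30%. An Egr core was present in 5.55% of all windows. Among the 7 members with a window, it was found only in the Fth1 window at chr19:9982396-9982695 (76 bases before the start). The other Fth1 window held no match. None was found in the 4 windows printed, which says only that these letters are not in those stretches. The Tfrc window at chr16:32608646-32608945 held 2 metal response cores, which overlap each other, and 1 BMP core. The other Tfrc window held no match. A letter match is a description of the sequence and not evidence of binding.

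The iron genes carry another kind of regulatory sequence, the iron-responsive element, an RNA hairpin bound by the iron regulatory proteins Aco1 and Ireb2 when iron is low. At the start of a transcript it is known to hold back translation, as in ferritin and ferroportin, and at the end of the Tfrc transcript it protects the message. A C, a stem of 5 bases, the loop CAGTGN and the pairing stem were searched in the GENCODE transcripts (GRCm38, G-T pairs allowed), and the loop is in capitals.
Fth1, 5′ UTR: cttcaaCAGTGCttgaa
Ftl1, 5′ UTR: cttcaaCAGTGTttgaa
Slc40a1, 5′ UTR: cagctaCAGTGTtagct
Tfrc, 3′ UTR, the first of 4: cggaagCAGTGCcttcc
Such an element was found in Fth1, Ftl1 and Slc40a1 (1 sequence each) and in Tfrc (4 sequences), in none of the other 6 genes, and in 1.34% of 21877 protein-coding genes.

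Levels are given as CPM (counts scaled to the size of the library, with TMM factors) within a gene, and per length (FPKM) where genes are compared. Total counts were 13375377 to 16557378 per library in the time course and 13747706 to 21748956 in the genotype cohort, where the H libraries (18764485 or more) were deeper than the L libraries (16633981 or fewer). Nothing in the labels says whether a library is 1 mouse, so p-values measure the spread between libraries, across the 6 ZT of an age or the 6 pairs. In bulk liver, a change in the number of cells of a type and a change in RNA per cell cannot be told apart.

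By median FPKM over the 18 time-course libraries, Hamp was the most abundant of the 10 genes (2484), followed by Ftl1 (1071), Fth1 (412) and Tmprss6 (123). Mt1 (22.3), Slc40a1 (16.4), Slc39a14 (7.42) and Tfrc (4.25) lay far lower, with overlapping ranges between neighbours, and Hamp2 (3.07) and Mt2 (0.565) were the lowest. The order hides a very unequal spread. Fth1 varied 1.47-fold from its lowest to its highest library, Ftl1 1.78-fold and Tmprss6 1.90-fold (CPM), whereas Hamp varied 3.16-fold, Slc39a14 5.75-fold and Mt1 417-fold. In the genotype cohort Ftl1 was the most abundant (2282 FPKM) and Hamp the next (1878), with overlapping ranges.

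Some counts carry limits set by sequence. In GENCODE annotation, 432 of the 588 exon bases of Mt2 lie across from the antisense gene Gm45774, whose CPM was at most 2.31, and reads in that stretch could be left uncounted where strand is not used. The FPKM of Mt2 rests on all 588 bases, so its place below the other genes could then be too low. Of all 50-base windows of the Hamp transcripts, 16.6% also occur in Hamp2, and 58.4% of those of Ftl1 occur in other genes, mostly ferritin pseudogenes. The remaining members shared at most 1.59% (Fth1), apart from Hamp2 (19.5%) and Mt2 (45.8%, all with Gm45774).

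The 6-month time-course libraries stood apart before any of these genes was considered. Saa1, a serum amyloid A gene and marker of the hepatic acute-phase response, was between 5250 and 22380 CPM in all 6 of them. It was 80.1 to 327 CPM at 2 months, 25.5 to 1549 CPM at 12 months, and 605 CPM at most in the genotype cohort. All 13 listed acute-phase genes were higher at 6 than at 2 months (median log2 fold change 2.28, against 0.004 over all genes tested), and so were the neutrophil genes S100a8 (log2 3.89 ± 0.35 SE) and S100a9 (4.14 ± 0.32). Erythroid markers summed to 3636 CPM or more in 4 libraries (6 months at ZT13, ZT17 and ZT21, and 12 months at ZT9) and to 2176 CPM or less in the other 14. What set these libraries apart was not tested, and within the time course it cannot be told apart from age. In the genotype cohort, the 6-month WT libraries had Saa1 at 60.6 CPM (ZT9) and 331 CPM (ZT21). The time-course libraries of that age and those times had 14150 and 5250 CPM.

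The metallothioneins had the largest fold changes of the 10 genes between ages. Mt1 was 11.2 CPM in its lowest 2-month library, 20.8 in the median and 72.1 in the highest. At 6 months it was 230, 913 and 3155 CPM, and at 12 months 7.57, 16.3 and 30.0 CPM. Every 6-month library lay above all libraries of the other ages, and the 2- and 12-month libraries overlapped. The mean rose 40.0-fold from 2 to 6 months (log2 fold change 5.35 ± 0.47 SE, adjusted p = 2.36e-06, edgeR quasi-likelihood test, Benjamini-Hochberg adjusted over the whole table) and was lower again at 12 than at 6 months (log2 -5.87 ± 0.49, adjusted p = 2.88e-06). Between 12 and 2 months the log2 difference was -0.52 ± 0.42 (adjusted p = 0.457).

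Mt2 is the neighbour of Mt1 on chromosome 8 and is known to be induced with it. In the 2-month libraries it had 39 counts in all, in the 12-month libraries 20, and in the 6-month libraries 3828. In CPM this was 0.067 to 1.28 at 2 months, 9.71 to 115 at 6 months and 0.112 to 0.343 at 12 months, so the 6-month libraries did not overlap with the others. Its counts were 3 or fewer in 2 of the 2-month and 4 of the 12-month libraries, and the fold change is therefore imprecise. Mt2 passed the filter on low counts only through its 6-month libraries. Its test and its place among the called genes thus depend on the group where it was high. The mean was 111-fold higher at 6 than at 2 months (log2 6.64 ± 0.37 in the fit, adjusted p = 1.40e-08), and the log2 difference of 12 against 6 months was -7.54 ± 0.40 (adjusted p = 2.35e-08). At 12 against 2 months it was -0.90 ± 0.69 (adjusted p = 0.436).

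The rise in Mt1 was uneven over the day. Against the 2-month library of the same ZT, Mt1 was 93.1-fold higher at ZT5 and 12.7-fold higher at ZT17, the smallest ratio. Lcn2 (lipocalin-2, an iron-scavenging protein) and Saa1 had their largest ratios at ZT5 as well, 279-fold and 280-fold, and their smallest at ZT21 (21.3-fold and 21.5-fold). Orm2, another acute-phase gene, had its largest at ZT9 (93.0-fold). With 1 library per time, a time of day and the state of the animals sampled then cannot be told apart.

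**Figure D1:**
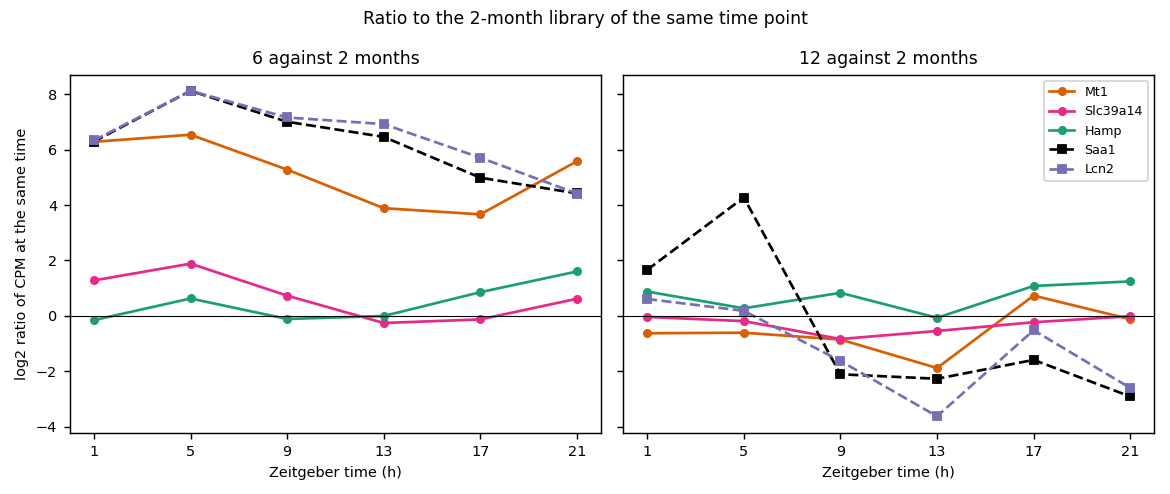
Log2 ratio of CPM to the 2-month library of the same ZT, for 6 months (left) and 12 months (right), with members as solid lines and the acute-phase genes Saa1 and Lcn2 as dashed lines. At 6 months Mt1, Saa1 and Lcn2 are above 0 at all 6 times and highest at ZT5, while Hamp and Slc39a14 stay near 0 at several times.

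Slc39a14, the zinc and iron importer, was also higher at 6 months, with a smaller fold change. Its lowest, median and highest values were 57.8, 77.0 and 125 CPM at 2 months, 64.8, 131 and 307 CPM at 6 months, and 53.5, 62.3 and 85.2 CPM at 12 months. The groups overlapped, since at ZT13 and ZT17 the 6-month libraries lay below the 2-month libraries of the same time. The log2 fold change was 0.73 ± 0.23 at 6 against 2 months (adjusted p = 0.0429) and -1.05 ± 0.23 at 12 against 6 months (adjusted p = 0.00578). The first call is near the threshold and was lost in 15 of 26 alternatives, among them 11 that left out 1 library each, with log2 fold changes of 0.48 (without ZT5 at 6 months) to 1.30 over all 26. The second was lost only without the 2 libraries at 12 months with the most Saa1 (ZT1 and ZT5, adjusted p = 0.0654).

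Hamp, the hepcidin gene itself, was 459, 641 and 1064 CPM (lowest, median, highest) at 2 months, 510, 1062 and 1394 CPM at 6 months, and 832, 1050 and 1452 CPM at 12 months. The 12-month libraries lay higher than the 2-month ones of the same ZT at 5 of 6 times, with overlap at the highest 2-month library (ZT13). The log2 fold change of 12 against 2 months was 0.70 ± 0.21 (adjusted p = 0.0394), a 1.60-fold rise in the mean. At 6 against 2 months it was 0.48 ± 0.21 (adjusted p = 0.148) and at 12 against 6 months 0.22 ± 0.21 (adjusted p = 0.524), neither past the threshold. The first passed in 1 of 26 alternatives, with no filter (0.49, adjusted p = 0.00828), and ran from 0.19 to 0.62 over all 26. The 6-month libraries were split, with ZT1 (510) and ZT9 (549) near the 2-month level and the other 4 at 1060 CPM or more. The call at 12 months was lost in 12 of 26 alternatives, with log2 fold changes of 0.55 to 0.83 over all 26. Leaving out 1 library ended it for each 2-month library but ZT13 and for ZT1, ZT9, ZT17 and ZT21 at 12 months. It was also lost without the ZT block (adjusted p = 0.0861), without the 2 libraries at 12 months with the most Saa1 (adjusted p = 0.116) and without the 4 with the most erythroid RNA (adjusted p = 0.0647).

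Hamp2 encodes a hepcidin-like peptide whose role in iron handling is not established. It was low, with 0.614 to 13 CPM at 2 months, 0 to 5.15 CPM at 6 months and 0.857 to 12.9 CPM at 12 months. In the 6-month libraries it had 107 counts in all, and at ZT9 none in a library where a count of 3 would be 0.214 CPM. At 6 against 2 months the log2 difference was -1.82 ± 0.72 (adjusted p = 0.108), and at 12 against 2 months -0.66 ± 0.62 (adjusted p = 0.537). The first passed in 3 of 26 alternatives. With no filter it was -1.81 (adjusted p = 5.41e-05), and without ZT21 at 6 months -2.94 (adjusted p = 0.0149). Without the 4 libraries with the most erythroid RNA, of which ZT21 is 1, it was -5.25 (adjusted p = 0.000452).

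The remaining genes differed less with age. Tfrc was 16.5, 31.9 and 45.3 CPM at 2 months, 22.5, 26.3 and 45.5 CPM at 6 months, and 11.6, 17.5 and 36.8 CPM at 12 months. It was lower at 12 than at 2 months at each of the 6 ZT, with ratios from 0.466 at ZT1 to 0.994 at ZT17, but the log2 difference of -0.57 ± 0.21 did not pass (adjusted p = 0.0882). It passed in 6 of 26 alternatives, among them those without ZT13 at 12 months (-0.75, adjusted p = 0.0419), ZT1 at 6 months (adjusted p = 0.0405) or ZT13 at 6 months (adjusted p = 0.0286), DESeq2 (adjusted p = 0.0404), no filter and only the 2 ages compared. At 12 against 6 months Tfrc differed by -0.59 ± 0.21, also short of the threshold (adjusted p = 0.0672). Tmprss6, the inhibitor of hepcidin transcription, differed by log2 -0.22 ± 0.09 at 6 against 2 months (adjusted p = 0.113, and 0.0474 in DESeq2) and was higher at 12 than at 6 months (log2 0.31 ± 0.09, adjusted p = 0.0227), with medians of 416, 354 and 446 CPM at 2, 6 and 12 months. That call was lost in 11 of 26 alternatives (log2 0.26 to 0.40), among them 6 that left out 1 library (ZT1, ZT5, ZT9 or ZT13 at 6 months, ZT1 or ZT13 at 12 months). Of the ferritin genes, Fth1 had medians of 1406, 1415 and 1458 CPM and Ftl1 medians of 1350, 1260 and 1647 CPM at 2, 6 and 12 months. For Fth1 the log2 difference was -0.02 ± 0.10 at 6 and 0.02 ± 0.10 at 12 against 2 months. For Ftl1 it was -0.05 ± 0.10 and 0.24 ± 0.10 (adjusted p = 0.787 and 0.133), and the second passed with library totals (0.30, adjusted p = 0.0404). At 12 against 6 months the log2 difference of Ftl1 was 0.295 ± 0.101 (adjusted p = 0.0568), short of the threshold. Slc40a1 medians were 138, 146 and 154 CPM, with log2 differences of -0.04 ± 0.14 and 0.18 ± 0.14 from 2 months.

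In counts, 3 of the 10 genes were higher and none lower at 6 against 2 months, where 13.7% of all 13361 genes tested were called (6.83% higher, 6.89% lower). At 12 against 2 months 1 was higher, beside 11.9% of all genes (6.61% higher, 5.27% lower). At 12 against 6 months 3 were lower and 1 higher, beside 16.4% of all genes (8.79% higher, 7.59% lower). Mt1 and Mt2 were the only 2 of the 10 whose 6-month libraries overlapped with neither other age. Over all genes whose mean reached 1 CPM, the share without overlap was 4.73% for 6 against 2 months, 4.24% for 12 against 2 months and 4.64% for 12 against 6 months. Mt2 reached that mean, and passed the filter of the test, only through its 6-month libraries.

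**Figure D2:**
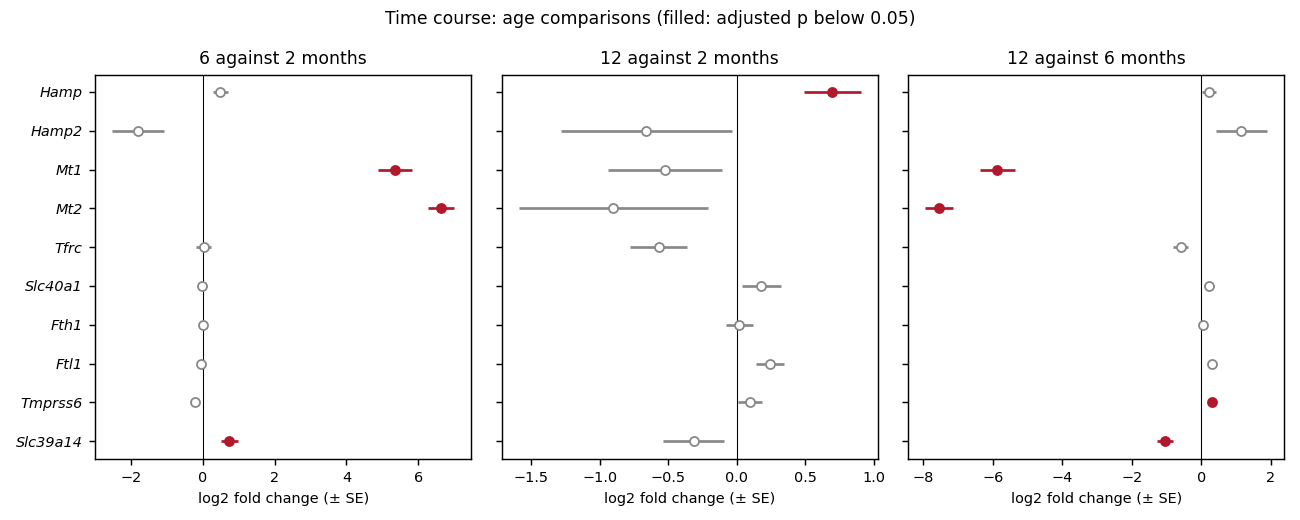
Log2 fold changes (points, with bars of 1 SE) of the 10 genes in the 3 age comparisons of the time course, with filled red points where the adjusted p was below 0.05. Mt1 and Mt2 lie between 5.35 and 6.64 at 6 against 2 months and between -7.54 and -5.87 at 12 against 6 months, while Fth1 sits near 0. Ftl1 lies between -0.05 and 0.295.

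The genes around the members give the setting of these changes. Of 11 genes of iron uptake and export, 6 were higher at 6 than at 2 months and 1 lower. Steap4, a ferrireductase, led (log2 2.39, adjusted p = 0.000575), followed by Flvcr1, a haem exporter (0.86), Trf, transferrin (0.83), Cp, the ferroxidase ceruloplasmin (0.72), Slc11a2, the iron importer DMT1 (0.71), and Steap2 (0.61), while Steap3 was lower (-0.47). Steap4 ran from 75.0 to 130 CPM at 2 months, 161 to 1617 CPM at 6 months and 71.4 to 95.1 CPM at 12 months, again highest at ZT5. Trf must be read with care. Its exons lie within the read-through gene Gm20425, and its median was 263.9 CPM in the time course and 10090 CPM in the WT libraries of the genotype cohort.

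Of 16 genes of intracellular iron and haem, 2 were higher at 6 against 2 months, Hmox1, the inducible haem oxygenase (log2 0.86, adjusted p = 0.00183), and Blvrb, a biliverdin reductase (0.36). Aco1, which makes iron regulatory protein 1, was lower (-0.51). Among the 6 zinc-handling genes tested, Slc39a1 was higher (0.57) and Slc39a4 lower (-0.79). Mtf1, the metal sensor that acts on metallothionein genes, was 10.2 to 13.6 CPM at 2 months and 11.2 to 15.4 CPM at 6 months, and Slc30a1, a zinc exporter that MTF1 also induces, was 30.1 to 36.3 and 33.4 to 49.2 CPM. Neither passed the test.

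Both arms known to drive hepcidin were measured by their genes. Of 8 genes of the interleukin-6 and STAT3 arm, 3 were higher at 6 than at 2 months, Socs3, a feedback inhibitor induced by STAT3 (log2 2.61, adjusted p = 0.000634), Stat3 itself (0.95) and the receptor chain Il6st (0.50). Of 13 genes of the hepcidin receptors and BMP signalling, 1 was higher, the ligand Bmp2 (0.66), and of 5 BMP-SMAD target genes 0 passed edgeR's test (0 also at an unadjusted threshold of 0.05). At 12 against 2 months 0 of 8 genes of the STAT3 arm passed edgeR's test (4 at an unadjusted threshold of 0.05). Of the 13 receptor and BMP signalling genes 1 was higher, the ligand Bmp6 (log2 0.55, adjusted p = 0.0383), with a median log2 of 0.012 over the 13. Of the 5 target genes 2 were higher, Id1 (0.68, adjusted p = 0.0335) and Bambi (0.44, adjusted p = 0.0466). Over all genes tested, 11.9% were called in this comparison and 13.7% at 6 against 2 months. Whether either arm bears on the level of Hamp was not tested. The receptors Hfe, Tfr2 and Hjv (listed under its older symbol Hfe2) passed in neither comparison. Of the 6 glucocorticoid-inducible genes 0 passed edgeR's test at 6 against 2 months (2 at an unadjusted threshold of 0.05), and of 5 NRF2 target genes 1 was higher (Txnrd1, 0.40). At 12 against 2 months Tsc22d3 (-0.65) and Pck1 (-0.88) of the first list were lower, and Nqo1 (0.79) and Gclc (0.42) of the second were higher.

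At 6 against 2 months, 5 of 8 Kupffer cell markers were higher, by 0.36 to 0.48 on the log2 scale, and their sum was 628 to 864 CPM, against 563 to 612 CPM at 2 months and 443 to 655 CPM at 12 months. The 4 neutrophil markers summed to 20.4 to 133 CPM at 6 months, 1.88 to 5.11 CPM at 2 months and 4.02 to 10.6 CPM at 12 months, and Mpo was at 3 counts or fewer in each library. Hepatocyte markers summed to 83730 to 97520 CPM at 2 months, 51420 to 101900 CPM at 6 months and 94200 to 129600 CPM at 12 months, and 3 of 5 were higher at 12 than at 6 months. Most of that sum is Alb (median 76050 CPM over the time course). Those of sinusoidal endothelium summed to 129 to 179, 155 to 249 and 116 to 175 CPM, with 1 of 4 higher at 6 against 2 months and 2 of 4 lower at 12 against 6 months. The part these cells had in the changes of the 10 genes was not tested.

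Time of day was examined by fitting a 24-h cosine, whose amplitude is the log2 distance from its mean to its peak. With 1 phase shared by the 3 ages, 3 of the 10 genes passed, beside 16.1% of all genes. Tfrc had an amplitude of 0.52 with its peak at ZT15.86 (adjusted p = 0.0221), Ftl1 of 0.25 with its peak at ZT15.87 (adjusted p = 0.0170), and Mt2 of 1.16 with its peak at ZT6.86 (adjusted p = 0.0247). The fitted peaks of Tfrc and Ftl1 lie in the dark phase, when mice feed. The count fell to 1 without ZT17 at 6 months and was 5 without ZT9 at 12 months. Hamp had an amplitude of 0.28 (adjusted p = 0.216) and Fth1 of 0.14 (adjusted p = 0.205), neither past the threshold. Mt2 rests on the 6-month libraries, given its counts at the other ages.

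Within single ages, 0 of the 10 genes passed edgeR's test at 2 months (5 at an unadjusted threshold of 0.05, 1 in DESeq2, beside 5.13% of all genes in edgeR), 4 at 6 months (4.85%) and 1 at 12 months (3.79%). At 6 months these were Slc39a14 (amplitude 1.01, peak at ZT5.26, adjusted p = 0.000511), Mt2 (1.43, ZT6.48, adjusted p = 0.0108), Slc40a1 (0.51, ZT14.54, adjusted p = 0.0426) and Hamp2 (ZT19.94, adjusted p = 0.0256), the last from 0 to 69 counts per library. Without ZT5 or ZT17 at 6 months 2 passed there, and without ZT21 1. In the rank test for rhythm with exact permutation p-values, 4 of the 10 reached the smallest p it allows at 6 months (0.0333), beside 8.32% of all genes. These were Slc39a14 and Hamp2, and also Fth1 and Tmprss6, while the exact p was 0.317 for Mt2 and 0.133 for Slc40a1. Slc39a14 was 160, 307, 159, 104, 64.8 and 88.7 CPM from ZT1 to ZT21 at 6 months, the same order of libraries from high to low as for Steap4. Slc40a1 was lowest at ZT5 (77.9 CPM), the library with the most Mt1, Slc39a14 and Saa1, and 101 to 171 CPM in the other 5. At 12 months Tfrc passed (amplitude 0.94, peak at ZT15.05, adjusted p = 0.00958), with 11.6 and 12.2 CPM at ZT5 and ZT1 and 36.4 and 36.8 CPM at ZT13 and ZT17. It was lost without either of the last 2 libraries.

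A rhythm called at 1 age is not thereby shown to differ from another. In the test of the difference between ages, 0 of the 10 genes passed in edgeR, beside 0.0973% of all genes (13 genes), with 5 at an unadjusted threshold of 0.05, and DESeq2 called 3 of the 10. The gene nearest the threshold in edgeR was Slc39a14 (adjusted p = 0.0618), followed by Hamp2 (adjusted p = 0.140). For Tfrc the adjusted p was 0.268.

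**Figure D3:**
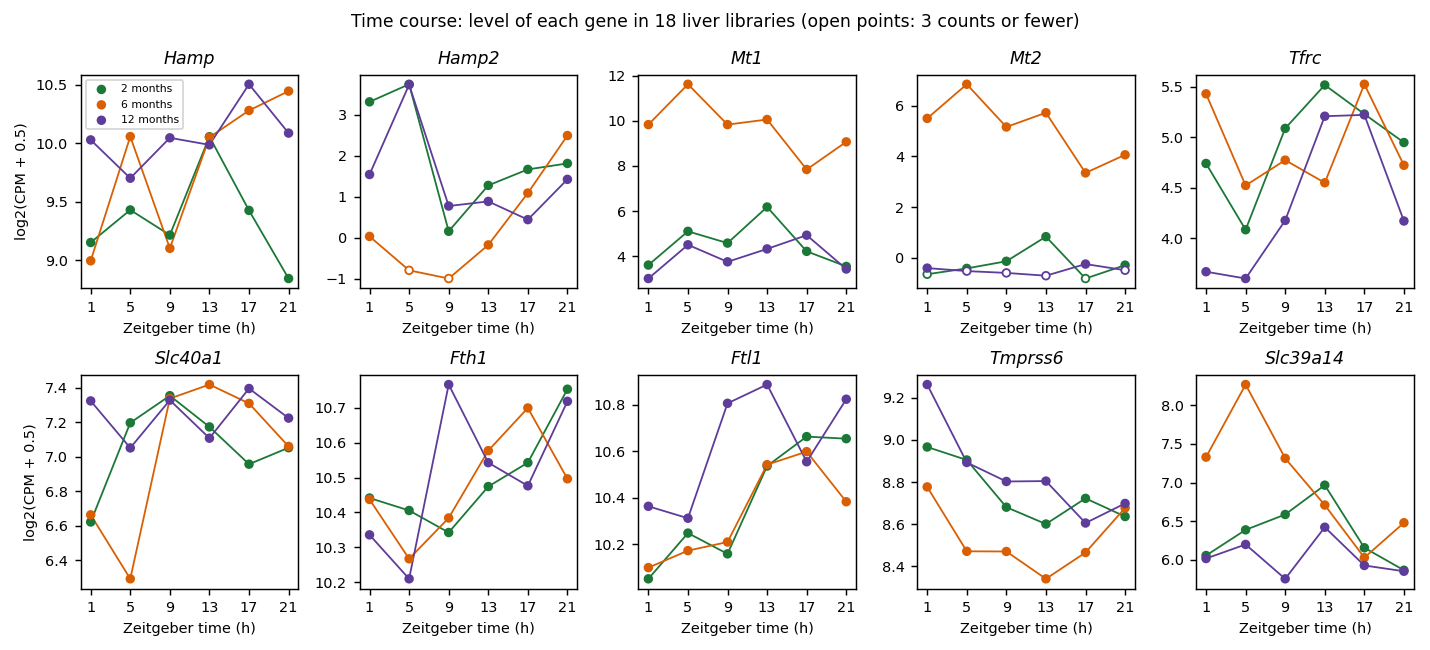
Level of each of the 10 genes, as log2(CPM + 0.5), against ZT in hours, with 1 point per library and a line for each age (2 months green, 6 months orange, 12 months purple), and open points for 3 counts or fewer. The 6-month line lies above both others at every ZT for Mt1 and Mt2, and the Tfrc lines of 2 and 12 months are highest at ZT13 and ZT17.

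Across the 18 libraries the members fell into a few groupings by rank correlation, given as a description because libraries of an age share that age. Mt1 went with Mt2 (Spearman's rho 0.81) and with Slc39a14 (0.804), and Fth1 with Ftl1 (0.777), while Mt1 and Tmprss6 ran opposite (-0.653). Among the genes whose mean reached 1 CPM, the 5 most like Mt1 were Syk (0.899), St3gal4 (0.899), Dnajc10 (0.895), Steap4 (0.889) and Il1r1 (0.886). The 5 most like Hamp were Znhit2 (0.82), Grap (0.816), Trip10 (0.816), Llph (0.80) and Psmb5 (0.792), and those most like Tfrc were Srm (0.878), Tmem200b (0.833), Sltm (0.831), Fam189a2 (0.825) and Wdr82 (0.798).

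In the genotype cohort the deleted gene was examined first. Egr1 was lower in the library labelled KO in 4 of 6 pairs. In the pair 6m_H it was 72.2 CPM in WT and 5.49 in KO, in 6m_L 25.0 and 4.97, in 12m_L 55.3 and 1.54, and in 2m_H 2.54 and 1.96. In the pair 2m_L it was 1.45 CPM in WT and 7.36 in the library labelled KO, and in 12m_H 5.87 and 6.15. The labels are therefore used as given, and the direction of an effect of genotype rests on them. Hepatocyte markers summed to 68990 to 88000 CPM in WT and to 39330 to 52610 CPM in the libraries labelled KO, without overlap, with Alb (log2 -0.88, adjusted p = 0.0100) and Apoa1 (-0.76, adjusted p = 0.00948) lower. These were 2 of the 5 markers, whose median log2 was -0.28. Most of the sum is Alb alone, with a median of 58310 CPM in WT beside a median sum of 76430 CPM. Kupffer, erythroid, endothelial and neutrophil marker sums overlapped between genotypes.

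Of the 10 genes, 9 passed the filter on low counts, and 0 differed between KO and WT in edgeR's test over the 6 pairs, beside 1.58% of 13639 genes (0.785% higher, 0.792% lower). At an unadjusted threshold of 0.05 there were 3 (Hamp2, Fth1 and Slc39a14), and DESeq2 called 1. Hamp2 came nearest. It was 11.7, 31.9 and 95.7 CPM (lowest, median, highest) in WT and 1.42, 9.13 and 24.6 CPM in the libraries labelled KO, and it was lower in 6 of 6 pairs, beside 4.84% of all genes at 1 CPM or more that were lower in each pair. The groups overlapped. Its log2 difference was -1.78 ± 0.40 (adjusted p = 0.0619), with single pairs from -4.59 (6m_H) to -0.39 (6m_L), and it passed in 4 of 12 alternatives (library totals, no filter, DESeq2, and without the pair 6m_H, where the log2 difference was -1.38 with an adjusted p of 0.0462). Hamp was 544, 767 and 1243 CPM in WT and 497, 750 and 1024 CPM in the libraries labelled KO (log2 -0.14 ± 0.16, adjusted p = 0.734), lower in 4 of 6 pairs.

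Mt1 was 9.79, 25.2 and 117 CPM in WT and 7.16, 13.7 and 93.6 CPM in the libraries labelled KO. The pairs pointed both ways, from -2.66 (6m_H) to 1.80 (2m_L) on the log2 scale, with a difference of -0.63 ± 0.53 (adjusted p = 0.616). The highest library of each genotype, WT at 6m_H and KO at 2m_L, also had the most S100a8 in its genotype (12.0 and 13.3 CPM). Neither had the most Saa1, with 60.6 and 131.5 CPM, where the highest values were 526.7 CPM in WT and 604.7 CPM in KO. Lcn2 was 5.36 CPM in that WT library (highest in WT 21.5 CPM) and 34.2 CPM, the highest in KO, in the other. Mt2 was at 1.84 CPM or less in all 12 libraries and was not tested. Fth1 was higher in the library labelled KO in 6 of 6 pairs, by 0.09 to 0.26 on the log2 scale, but the difference of 0.17 ± 0.07 did not pass (adjusted p = 0.252, and 0.0350 with library totals, where it was 0.29). Of all genes at 1 CPM or more, 5.26% were higher in each pair. Ftl1 differed by 0.16 ± 0.08 (adjusted p = 0.358), Slc39a14 by -0.24 ± 0.09 (adjusted p = 0.215), Tmprss6 by -0.09 ± 0.06, Tfrc by 0.02 ± 0.19 and Slc40a1 by 0.00 ± 0.07. Among the other genes of iron uptake and export 1 of 11 passed, Steap2, a ferrireductase (log2 -0.74, adjusted p = 0.0400), lower in each pair. Of 13 acute-phase genes, Orm3 was higher (0.96) and the fibrinogen chains Fga (-0.39), Fgb (-0.48) and Fgg (-0.40) were lower.

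The effect of genotype was also compared between ages and between H and L. In edgeR none of the 9 genes tested differed in either comparison, beside 0.0147% of all genes (2 genes) for ages and 0.00733% (1 gene) for H and L. At an unadjusted threshold of 0.05 there was 1 for ages (Mt1) and 1 for H and L (Tfrc), and DESeq2 called 0 in each. For Tfrc the effect of genotype at H minus that at L was -0.88 ± 0.27 on the log2 scale (adjusted p = 0.848). With 2 pairs per age these comparisons had few libraries.

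**Figure D4:**
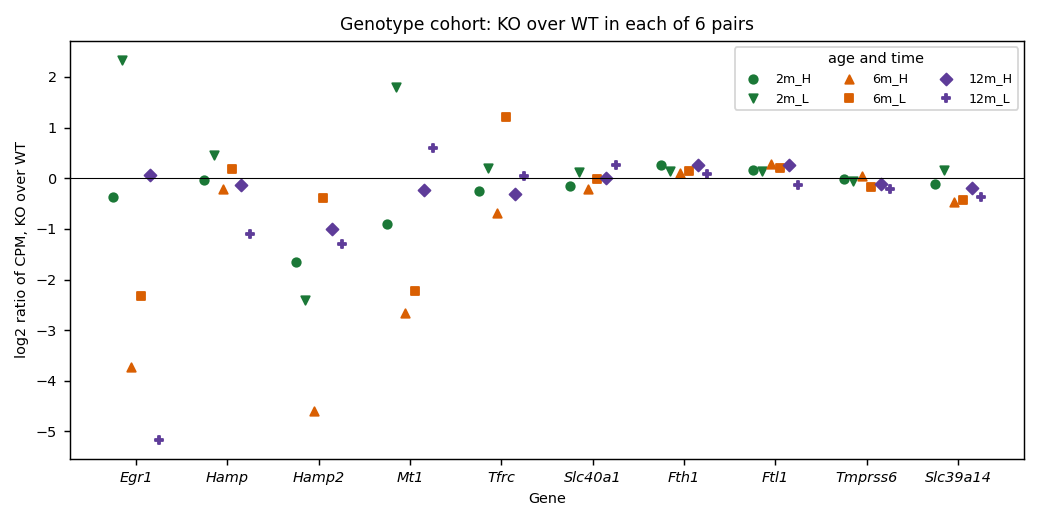
Log2 ratio of CPM, KO over WT, in each of the 6 pairs (symbols, with ages by colour) for Egr1 and the 9 members tested. Hamp2 is below 0 in 6 of 6 pairs, Fth1 is above 0 in 6 of 6 by at most 0.26, and Mt1 and Egr1 lie on both sides of 0.

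The genotype cohort also gave a second view of age, though with other times of day. At 12 against 2 months 2 of 9 genes differed, beside 12.2% of all genes. Fth1 was higher (log2 0.54 ± 0.08, adjusted p = 0.00246) and Slc39a14 lower (-0.55 ± 0.12, adjusted p = 0.0151). At 6 against 2 months 1 differed, beside 2.87% of all genes, and this was Tfrc (log2 -1.12 ± 0.25, adjusted p = 0.0380). In the time course, with ZT as a block, none of these 3 differences passed. There they were 0.02 ± 0.10 for Fth1, -0.32 ± 0.23 for Slc39a14 and 0.02 ± 0.21 for Tfrc. The fitted peak of Tfrc was at ZT15.86, and the 2-month libraries here were taken at ZT13 and ZT17. Whether time of day bears on the Tfrc call was not tested. The Tfrc call was lost on leaving out any of 9 of the 12 libraries (log2 -1.19 to -0.93), and that of Slc39a14 without any 1 of 4 libraries (WT or KO at 2m_H, WT or KO at 12m_H). For Hamp the log2 difference there was -0.35 ± 0.28 at 12 (adjusted p = 0.469) and -0.24 ± 0.27 at 6 against 2 months. Mt1 differed by 0.03 ± 0.89 at 6 against 2 months, and 0 of 13 acute-phase genes passed edgeR's test in that comparison (2 at an unadjusted threshold of 0.05). Slc39a4 was lower at 6 (-1.05) and at 12 months (-1.46) in this cohort and at both ages in the time course (-0.79 and -0.67).

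Set side by side at the same age and ZT, the WT libraries of the cohorts lay near each other for Hamp at 2 months and far apart for Mt1 at 6 months. The tables were normalized separately, and whether both were counted with the same annotation is not given in the sources used here, so these are levels with no test. Genes that share sequence with others, such as Hamp2 and Ftl1, could be affected by such a difference, which was not tested. At 2 months and ZT13 Hamp was 1064 CPM in the time course and 1042 CPM in the genotype cohort, and at ZT17 687 and 628 CPM. At 6 months it was 549 and 872 CPM at ZT9 and 1394 and 662 CPM at ZT21, and at 12 months 832 and 544 CPM at ZT5 and 1087 and 1243 CPM at ZT21, so neither cohort was the higher throughout. At 6 months and ZT9 Mt1 was 913 and 117 CPM, with Saa1 at 14150 and 60.6 CPM, and at ZT21 Mt1 was 537 and 33.4 CPM, with Saa1 at 5250 and 331 CPM. At 12 months and ZT5 Mt1 was 22.2 and 12.3 CPM, with Saa1 at 1549 and 85.7 CPM. At ZT21 of that age Mt1 was 10.3 and 9.79 CPM, with Saa1 at 32.5 and 41.8 CPM. At 2 months and ZT13 Mt1 was 72.1 and 23.5 CPM, with Saa1 at 131.5 and 59.7 CPM. At ZT17 of that age Mt1 was 18.1 and 26.9 CPM, with Saa1 at 327 and 527 CPM. Hamp2 was higher in the genotype cohort at all 6 shared ages and times (1.93 and 29.7 CPM at 2 months and ZT13), and so was Ftl1 (1485 and 2881 CPM there). Over all 6-month libraries, Mt1 was 230 CPM or more in the time course and 117 CPM or less in the genotype cohort.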

How the data were processed

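Counts of reads per gene were used as the authors deposited them, as raw whole numbers made from poly(A) libraries with fastp, HISAT2 and featureCounts on mm10, per the labels and the study's methods. The annotation and tool versions were not given in the sources used here, nor whether reads were counted by strand. Of the genes listed, 53775 of 54429 symbols and 55144 of 55471 identifiers matched GENCODE M21 (GRCm38), and 0 columns were left out.

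Differences were tested with edgeR 4.0.16 (R 4.3.3, TMM factors, filterByExpr, quasi-likelihood F-test) over all genes, with Benjamini-Hochberg adjustment and a threshold of 0.05. Age comparisons in the time course took ZT as a block, rhythms took cosine and sine terms with a 24-h period, and genotype took the pair of the same age and collection time as a block. With 1 library per age and ZT, the 6 times of an age stood in for replicates. CPM used TMM factors, FPKM used library totals and all annotated exon bases. Rank correlations used log2(CPM + 0.5). A library with 3 counts or fewer of a gene was taken to be at the floor. Alternatives were library totals, no filter, DESeq2 1.42.0, fits without the block, other sets of libraries, a rank test for rhythm (JTK kind) with exact permutation p-values, and leaving out each library or pair. The fit was tested on simulated data with known fold changes. Figures were drawn with matplotlib 3.10.9, and tables were joined with pandas 2.3.3 in Python 3.11.15 (scipy 1.17.1, numpy 2.4.6).

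The 10 genes were named as members. Other genes come from 9 lists of the pathways around them and from cell type markers, where those past the threshold were named, up to 5 per list, or direct partners of a member. Members and lists were chosen with earlier results of these data known, so they are not independent evidence. The acute-phase genes set beside the members, and the sets of libraries left out by Saa1, erythroid RNA or Egr1, were chosen after their values were seen.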

Additional observations from a re-analysis of the deposited data

Results flagged for a closer look

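Of the 50 combinations of a gene and a group of 6 libraries, 10 held 1 library whose gap to its nearest neighbour was large for the range of the group (Dixon's test at the 95% level, on CPM). That level assumes replicates with a normal spread, which these groups are not, so the number flagged cannot be set against chance. In the time course, Mt1 at 6 months and ZT5 was 3155 CPM, with the next library at 1067. In the 2-month group, ZT13 stood out for Mt1 (72.1 CPM, next 33.9) and for Mt2 (1.28 CPM, next 0.409). Hamp2 stood out at 6 months and ZT21 (5.15 CPM, next 1.63) and at 12 months and ZT5 (12.9 CPM, next 2.42). In the genotype cohort, the WT library 6m_H stood out for Mt1 (117 CPM, next 33.4) and Mt2 (1.84 CPM, next 0.686), and the library labelled KO of 2m_L for Mt1 (93.6 CPM, next 18.6) and Mt2 (0.952 CPM, next 0.118). The WT library 12m_L stood out for Ftl1 (3605 CPM, next 2881). Groups here span 6 times of day, or 3 ages and 2 collection times, and what set single libraries apart was not tested.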

How the results depend on the processing

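Mt1 passed in all 26 alternatives at 6 against 2 months (log2 5.03 to 6.12) and at 12 against 6 months. Mt2 did too (6.13 to 7.67 at 6 against 2 months). It passed the filter of the main fit only through its 6-month libraries, so its passes are no separate support. Fth1 passed in all 16 at 12 against 2 months in the genotype cohort, where age and time of day cannot be told apart. In the time course its log2 difference was 0.02 ± 0.10 (adjusted p = 0.937 in edgeR's test). The labels give no replicate numbers, so ZT and the pairs of the same age and time served as blocks. Without the replicate block (no ZT term), the members called at 12 against 2 months went from 1 to 0 and Tfrc at 6 against 2 months to -0.02, and the calls of Slc39a14 at 6 against 2 months (adjusted p = 0.0711) and Tmprss6 at 12 against 6 months (adjusted p = 0.0768) were lost. Without the pair term as a block, Slc40a1 in KO against WT was 0.00.

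Counts of the 10 genes moved as follows. With library totals, 2 were called at 12 against 2 months and 2 in KO against WT. With no filter, they were 5 at 6 against 2 months, 2 at 12 against 2 months, 3 and 2 for the rhythm at 2 and 12 months, 2 for a rhythm that differs between ages, and 1 each for KO against WT, its difference between ages and its difference between H and L. With DESeq2, they were 2 at 12 against 2 months, 1 for the rhythm at 2 months, 3 for a rhythm that differs, 1 for KO against WT, and 2 at 6 against 2 months in the genotype cohort. With only the 2 ages compared, they were 2 at 12 against 2 months. In the alternatives chosen after seeing the data, without the 2 libraries at 12 months with the most Saa1, they were 0 at 12 against 2 months and 2 at 12 against 6 months, and without the 4 with the most erythroid RNA 0 at 12 against 2 months. By the exact permutation test of the JTK kind, whose smallest p is 0.0333 and which 6.46% of all genes reached, 0 were rhythmic at 12 months. Single calls at 6 against 2 months also moved. Slc39a14 lost its call with library totals (adjusted p = 0.0567), with only the 2 ages compared (0.0980) and without the 2 libraries with the most Saa1 (0.0605). Calls were gained by Tmprss6 with DESeq2 (adjusted p = 0.0474), by Hamp and Hamp2 with no filter, and by Hamp2 without the 4 libraries with the most erythroid RNA (0.000452).

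On leaving out 1 library or pair, the counts ran from 2 to 3 at 6 against 2 months, 0 to 2 at 12 against 2 months, 3 to 5 at 12 against 6 months, 1 to 5 for the shared rhythm, 0 to 1, 1 to 5 and 0 to 2 for the rhythm at 2, 6 and 12 months, 0 to 1 for a rhythm that differs, 0 to 1 for KO against WT, and 1 to 3 and 0 to 1 for 12 and 6 against 2 months in the genotype cohort. Fewer libraries also mean fewer degrees of freedom, and no other cause was tested.

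Log2 differences near 0 changed sign in some alternatives, with no call. For Tfrc at 6 against 2 months the values were -0.01 with only the 2 ages compared, -0.01 without the 2 libraries with the most Saa1, and -0.19 to 0.22 on leaving out 1 library. Slc40a1 ran from -0.13 to 0.09 and Fth1 from -0.06 to 0.03 in that comparison, and Fth1 from -0.06 to 0.05 at 12 against 2 months, and -0.07 without the 4 libraries with the most erythroid RNA. In KO against WT, leaving out 1 pair gave -0.26 to 0.05 for Hamp, -0.20 to 0.16 for Tfrc and -0.05 to 0.04 for Slc40a1. There Slc40a1 was 0.00 with RLE factors and with DESeq2, and -0.03 without the pairs 2m_L and 12m_H, and Tmprss6 was 0.03 with library totals. At these depths Mt2 is limited by counts at 2 and 12 months of the time course, and Hamp2 at 6 months (107 counts in all). In the genotype cohort Mt2 is limited by counts, whereas Hamp2 had 4043 counts in WT and 1259 in the libraries labelled KO. The ferritin genes are not limited by counts in either cohort.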
